A study of Saccharomyces cerevisiae with 4 samples.

Results

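The genes for aminoacyl-tRNA synthetases of the budding yeast Saccharomyces cerevisiae were followed through the induction of Msn2A6. The 34 genes were chosen by name, 21 for enzymes of the cytosol and 13 for enzymes of mitochondria, out of 6144 genes tested. Each was matched by its open reading frame (ORF) name to 1 array probe. Total RNA was measured in 1 colour on Agilent yeast expression arrays. The first group held 2 arrays of cells taken 90 min after 6 nM 17β-estradiol, and the other held 2 arrays of untreated cells, at 0 min, which the series calls biological replicates. All cells were of a strain labelled BY4741, a laboratory background derived from S288C, and were grown as 50 ml cultures in rich glucose medium at 30 °C. In both groups the cells carried Msn2A6 as an estradiol-inducible gene. Msn2 activates general stress genes and is held in the cytoplasm by protein kinase A during growth, a control that the A6 form escapes. The driver of the allele and the number of clones are not given in the sources used here. No untreated culture was taken at 90 min, so estradiol, Msn2A6 and 90 min of further growth cannot be told apart.

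Aminoacyl-tRNA synthetases join each amino acid to its tRNA and so supply every ribosome with charged tRNA. Class I and class II enzymes have unrelated catalytic folds. Yeast translates in the cytosol and, for a handful of respiratory chain subunits, in mitochondria, and for most amino acids each compartment has an enzyme from a nuclear gene of its own. ALA1, GRS1, HTS1, VAS1 and CRS1 (YNL247W, for cysteine) instead serve both compartments from alternative starts of 1 gene, and they are counted here among the cytosolic genes. Synthesis of the cytosolic enzymes belongs to the growth programme of the cell, and uncharged tRNA is the signal that the kinase Gcn2 reads in amino acid starvation.

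The arrays lay on 1 slide and were scanned in 1 session, with median background of 20.5 to 21 against a median signal of 2969 to 3697 over yeast spots. Replicate arrays correlated at r = 0.9985 at 90 min and 0.9990 at 0 min over probes, against 0.9587 to 0.9591 between the times. The precision is limited by the number of arrays, 2 per group. P-values and SE of single genes rest on the spread between these arrays and, in limma, on a variance pooled over all probes. The pool weighed more, with 4.46 prior against 2 residual degrees of freedom, so these p-values do not measure each gene's own spread alone. MSN2 itself was higher at 90 min by 2.47 ± 0.09 on the log2 scale (SE). Its signal at 0 min was only 61.9 and 59.3, so the size of that rise is uncertain. Whether the probe reads native MSN2 as well as Msn2A6 was not tested. All 34 synthetase probes were well above background on all 4 arrays, with no saturated spot. Signal is given as log2 processed intensity relative to the 75th percentile of the array. It is compared between times for 1 gene, not between genes, because probes differ in how brightly they report.

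At 90 min the cytosolic synthetase genes were lower almost throughout, by modest amounts, while the mitochondrial ones split. Of 21 cytosolic genes, 20 fell and none rose (limma, adjusted p under 0.05). Of all genes tested, 76.5% passed in either direction, with 46.2% fallen and 30.3% risen. Of 13 mitochondrial genes, 6 fell, 2 rose and 5 did not pass. The median log2 change was -0.50 for the cytosolic genes, -0.11 for the mitochondrial genes and -0.13 for all genes. In bulk RNA, fewer cells with a transcript and less of it per cell cannot be told apart.

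The shift of the cytosolic genes was alike on each array. For the 4 ways of setting a 90 min array against a 0 min array, their median change was -0.52 to -0.47, with 20 of 21 genes negative each time. These pairings share arrays and are not independent. Of all genes, 58.8% had a negative change between the means of the 2 times, and no such share was computed for each pairing. Over the same pairings, the median of the mitochondrial genes was -0.17 to -0.10, with 8 to 10 of 13 negative. The difference of the cytosolic from the mitochondrial median was -0.38 to -0.31, a distance that no scaling between whole arrays by a constant can change. The direction of the cytosolic genes held under each scaling tried, with 20 lower in all of them. For the mitochondrial genes, 8 were lower and 2 higher with no scaling between arrays, and 9 were lower and 1 higher with scaling on spike-in controls. Those scalings moved the median of all genes from -0.13 to -0.32 and -0.58, so calls under them carry a shift that all genes share.

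**Figure D1:**
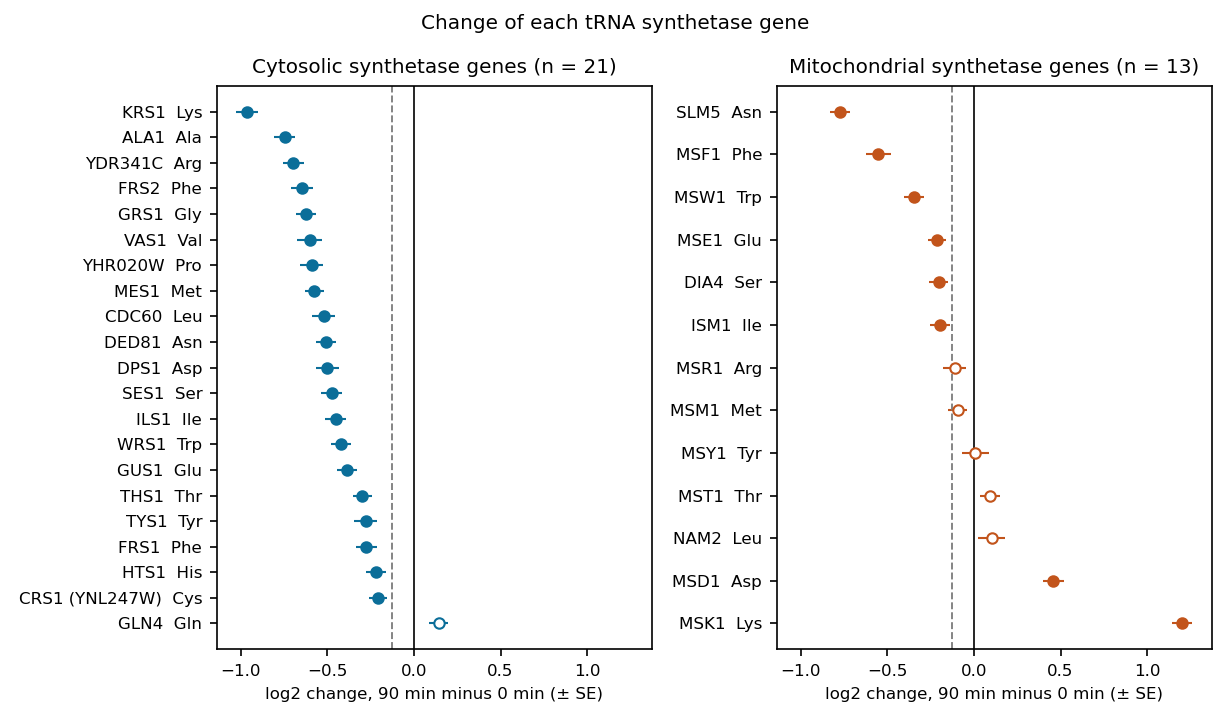
Log2 change (90 min minus 0 min, with its standard error) of each of 21 cytosolic (left) and 13 mitochondrial (right) synthetase genes, with the amino acid beside the gene. Filled points passed adjusted p under 0.05 and open points did not. The dashed line is the median of all genes, at -0.13. Among the cytosolic genes GLN4 alone has a positive change, and the mitochondrial genes run from SLM5 at -0.77 to MSK1 at 1.20; with spike-in scaling all points lie 0.45 lower.

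Among the cytosolic genes, KRS1, for lysine, changed most. Its log2 signal was 2.97 and 2.91 on the 90 min arrays, against 3.95 and 3.85 on the 0 min arrays. Between replicates the SD was 0.04 at 90 min and 0.07 at 0 min (n = 2 each). The fall was 0.96 ± 0.06 (log2 change -0.96, SE, adjusted p = 1.96e-05), which left 51.3% of the 0 min level. KRS1 stood at the 4.44th percentile of changes over all genes, counted from the lowest.

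ALA1, for alanine, and YDR341C, for arginine, followed. ALA1 read -0.07 and -0.17 at 90 min, against 0.64 and 0.61 at 0 min, a log2 change of -0.75 ± 0.06 (adjusted p = 5.73e-05). YDR341C read 1.31 and 1.41 at 90 min, against 2.05 and 2.06 at 0 min, a change of -0.70 ± 0.06 (adjusted p = 7.78e-05). For each of KRS1, ALA1 and YDR341C, both 90 min arrays lay below both 0 min arrays, with gaps several times the distance between replicates. They were named as the largest falls, and 88.4% of all genes had no overlap between the times.

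Another 5 cytosolic genes fell to about 64.0 to 67.2% of their 0 min level. They were FRS2 (log2 change -0.64), which encodes the alpha subunit for phenylalanine, GRS1 for glycine (-0.62), VAS1 for valine (-0.60), YHR020W for proline (-0.59) and MES1 for methionine (-0.57). The changes of CDC60 for leucine (-0.52), DED81 for asparagine (-0.51), DPS1 for aspartate (-0.50), SES1 for serine (-0.48), ILS1 for isoleucine (-0.45), WRS1 for tryptophan (-0.42) and GUS1 for glutamate (-0.39) lay around the median. The smallest falls were those of THS1 for threonine (-0.30), TYS1 for tyrosine (-0.28), FRS1 (-0.27), which encodes the beta subunit for phenylalanine, HTS1 for histidine (-0.22) and CRS1 for cysteine (-0.21). Standard errors of the 20 falls were 0.05 to 0.07, and adjusted p was 1.96e-05 to 0.0132. No cytosolic gene changed 2-fold on this scale, where 12.8% of all genes were called with at least a 2-fold change. KRS1 passed 2-fold with no scaling between arrays (-1.16) and without replicate 2 at 0 min (-1.01). With spike-in scaling KRS1 (-1.42), ALA1 (-1.20), YDR341C, FRS2 (-1.10), GRS1 (-1.08), VAS1 (-1.06), YHR020W (-1.04) and MES1 (-1.03) all did. The calls for HTS1 and CRS1 were lost without replicate 1 at 0 min (adjusted p = 0.083 and 0.061), and that of HTS1 also without replicate 2 at 90 min (0.0514).

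GLN4, for glutamine, was the exception in the cytosol. It read 1.76 and 1.71 at 90 min, against 1.61 and 1.58 at 0 min. The arrays of the 2 times did not overlap, as for 88.4% of all genes, but the change of 0.14 ± 0.06 missed the threshold (adjusted p = 0.0532). It passed with scaling on the median (0.19, adjusted p = 0.0199), an intensity trend (adjusted p = 0.0329) or a replicate block (adjusted p = 0.039), and the change was -0.05 without scaling and -0.31 under spike-in scaling.

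The genes that serve both compartments moved with the cytosolic ones. All 5 fell, beside 46.2% of all genes, with a median of -0.60 and a range of -0.75 for ALA1 to -0.21 for CRS1, though the calls for HTS1 and CRS1 were lost without replicate 1 at 0 min. The other 16 cytosolic genes had a median of -0.49, with 15 fallen. By enzyme class, 9 of 10 cytosolic class I genes fell (median -0.44) and so did 11 of 11 class II genes (median -0.51), so the fall crossed both classes.

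Subunit and partner genes of an enzyme were also set side by side. The cytosolic phenylalanine enzyme is built from the products of FRS1 and FRS2. FRS2 read 1.34 and 1.34 at 90 min, against 1.92 and 2.04 at 0 min, and FRS1 read 0.52 and 0.43 at 90 min, against 0.75 and 0.75 at 0 min. Within arrays, the log2 ratio of FRS2 over FRS1 was 0.82 and 0.91 at 90 min, against 1.17 and 1.30 at 0 min, a change of -0.37 ± 0.08 (SE). The SE of a ratio comes from its own 2 arrays per time, with no pooling over probes. The ratios did not overlap, but 2 arrays against 2 cannot give less than p = 0.33 in an exact two-sided permutation test. Arc1 is a tRNA-binding protein that holds Mes1 and Gus1, the enzymes for methionine and glutamate, in a complex. MES1 and GUS1 fell. ARC1 had a change of -0.11 ± 0.05 that did not pass (adjusted p = 0.0933), but it passed downward with quantile normalization (-0.22), with no scaling between arrays (-0.31) and with spike-in scaling (-0.57). Its difference from MES1 and GUS1 was not tested.

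With scaling on the 75th percentile, the synthetase genes that rose were both mitochondrial. MSK1, for lysine, whose precursor protein also takes part in the import of a cytosolic lysine tRNA into mitochondria, read 0.75 and 0.74 at 90 min, against -0.50 and -0.43 at 0 min. Replicates differed by an SD of 0.0062 at 90 min and 0.05 at 0 min, and the change was 1.20 ± 0.06 (2.3-fold, adjusted p = 4.8e-06). MSK1 stood at the 93.1st percentile of changes. With spike-in scaling its change was 0.75, still upward but under 2-fold.

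MSD1, for aspartate, read -0.22 and -0.29 at 90 min, against -0.68 and -0.75 at 0 min. It rose by 0.46 ± 0.06 (1.37-fold, adjusted p = 0.000534), with no overlap between the times, as for 88.4% of all genes. That rise depends on the scaling, since it was 0.26 with no scaling between arrays and 0.0042 with spike-in scaling, where the call was lost (adjusted p = 0.984).

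SLM5, for asparagine, fell most among the mitochondrial genes. It read -2.60 and -2.54 at 90 min, against -1.80 and -1.79 at 0 min, a change of -0.77 ± 0.06 (adjusted p = 3.31e-05) that left 58.5% of the 0 min level. MSF1, for phenylalanine, had a change of -0.55 ± 0.07, and MSW1, for tryptophan, one of -0.35 ± 0.06. Smaller falls were found for MSE1 for glutamate (-0.21 ± 0.05), DIA4, the probable serine enzyme (-0.20 ± 0.06), and ISM1 for isoleucine (-0.20 ± 0.06). ISM1 and DIA4 were near the threshold. Without replicate 1 at 0 min their adjusted p was 0.0996 and 0.0614. The ISM1 call was also lost without replicate 1 at 90 min (0.0626) and with quantile normalization (0.088). The DIA4 call was also lost without replicate 2 at 0 min (0.06) and without replicate 2 at 90 min (0.0686).

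The remaining 5 mitochondrial genes did not pass, with adjusted p of 0.159 to 0.927. The changes were -0.11 ± 0.07 for MSR1 (arginine), -0.09 ± 0.05 for MSM1 (methionine), 0.0087 ± 0.08 for MSY1 (tyrosine), 0.09 ± 0.06 for MST1 (threonine) and 0.10 ± 0.08 for NAM2 (leucine), whose product also helps to splice mitochondrial introns. NAM2 read -1.24 and -1.45 at 90 min, against -1.46 and -1.44 at 0 min, and MSY1 read -1.93 and -2.14 at 90 min, against -2.07 and -2.02 at 0 min. In both, the 90 min arrays stood apart (SD 0.15 and 0.14) and overlapped the 0 min arrays. NAM2 passed upward without replicate 2 at 90 min (0.21, adjusted p = 0.0413). MSM1 and MSR1 passed downward with no scaling between arrays (-0.29 and -0.31), and with spike-in scaling they were joined by MSY1 (-0.55, -0.57 and -0.44). Those calls carry the shift that these scalings gave to all genes.

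**Figure D2:**
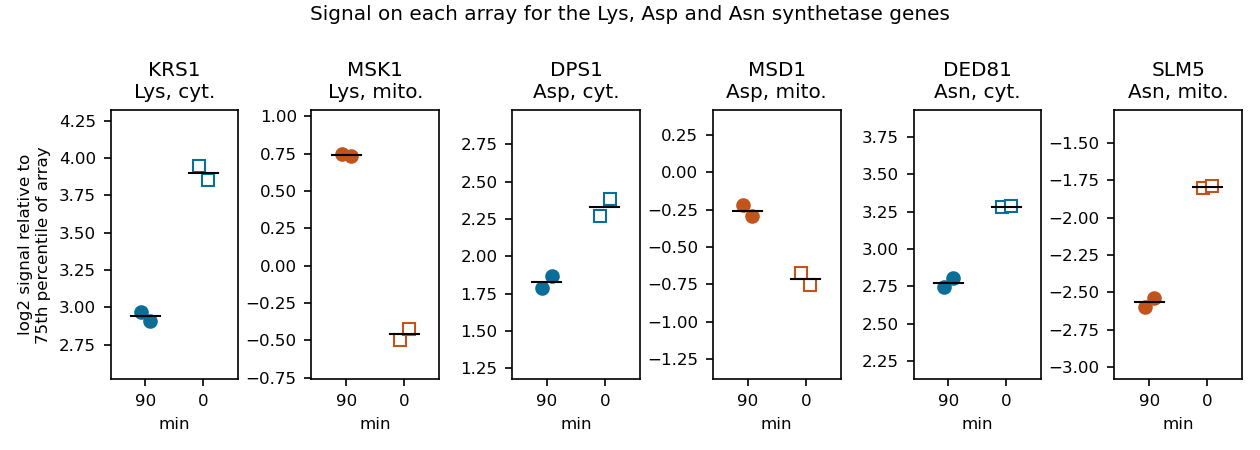
Log2 signal relative to the 75th percentile of the array, on each of the 2 arrays at 90 min (filled circles) and the 2 arrays at 0 min (open squares), for the lysine, aspartate and asparagine genes of the cytosol (blue) and of mitochondria (orange). Lines are means, and each panel spans the same log2 range. KRS1 and DPS1 lie lower and MSK1 and MSD1 higher at 90 min, with MSD1 at 0.0042 under spike-in scaling, and for asparagine both DED81 and SLM5 lie lower.

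For 13 amino acids the cytosol and mitochondria have separate genes among the 34, which allows a comparison within each array that does not depend on constant scaling. The log2 ratio of the cytosolic over the mitochondrial gene was lower at 90 min for 11 amino acids and higher for 2. The median change of the ratio was -0.29, and the ratios at 90 min and 0 min did not overlap for 12 of 13 amino acids, 11 of them downward. Single genes did not overlap between the times for 88.4% of all genes, and no share was computed for ratios of other gene pairs. The exact two-sided permutation test over the 4 arrays gave p = 0.33, the smallest that it can give, for those 12 and 0.67 for phenylalanine, so no ratio can pass a threshold of 0.05 by it. The ratio shows unequal change of the 2 genes and says nothing of which is more abundant. The SE of each ratio comes from its own 2 arrays per time, with no pooling over probes. It cannot be compared with the SE of a single gene, and a small one does not show higher precision.

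The largest change of ratio was that of lysine. Its log2 ratio of KRS1 over MSK1 was 2.22 and 2.17 at 90 min, against 4.45 and 4.28 at 0 min, a change of -2.16 ± 0.09 (SE, n = 2 each), or 4.48-fold. Here the largest fall of a cytosolic gene met the largest rise of a mitochondrial one. Aspartate followed, with DPS1 over MSD1 at 2.01 and 2.16 at 90 min, against 2.95 and 3.13 at 0 min, a change of -0.96 ± 0.12.

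For leucine (CDC60 over NAM2, -0.62 ± 0.08), arginine (YDR341C over MSR1, -0.58 ± 0.03), methionine (MES1 over MSM1, -0.48 ± 0.04) and threonine (THS1 over MST1, -0.39 ± 0.04), the cytosolic gene fell and the change of the mitochondrial gene missed the threshold. For tyrosine (TYS1 over MSY1) the same held, at -0.29 ± 0.16, with ratios of 3.81 and 4.13 at 90 min that stood far apart, against 4.25 and 4.26 at 0 min, and its change was -0.13 without replicate 1 at 90 min and -0.45 without replicate 2 at 90 min. YDR341C and MSR1 are close in sequence, so their signals are uncertain, and cross-hybridisation between them was not tested.

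For serine (SES1 over DIA4, -0.27 ± 0.08), isoleucine (ILS1 over ISM1, -0.25 ± 0.02) and glutamate (GUS1 over MSE1, -0.17 ± 0.03), both genes fell and the cytosolic one by more. For tryptophan (WRS1 over MSW1) both fell, with a ratio change of -0.07 ± 0.04 that ran from -0.11 to -0.04 when single arrays were left out. Its ratios of 1.06 and 1.11 at 90 min lay below those of 1.20 and 1.13 at 0 min by less than the distance between replicates. Phenylalanine, with the FRS1 and FRS2 signals averaged, had a change of 0.09 ± 0.07 against MSF1, and its ratios of 2.71 and 2.84 at 90 min overlapped those of 2.65 and 2.71 at 0 min. From the authors' value table that change was -0.0053. Asparagine ran the other way. DED81 over SLM5 read 5.34 and 5.34 at 90 min, against 5.08 and 5.08 at 0 min. The mitochondrial gene thus fell further, by a ratio change of 0.26, whose SE of 0.0013 from 2 arrays per time does not show its precision. That change was 0.20 with normexp correction of the background and 0.13 from the authors' value table.

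**Figure D3:**
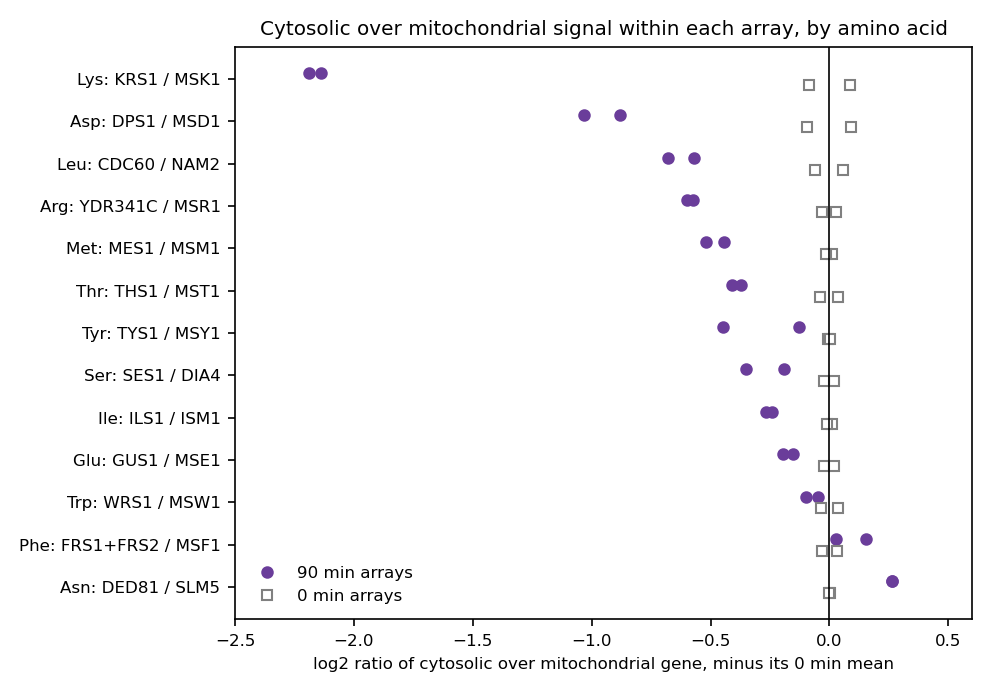
Log2 ratio of cytosolic over mitochondrial synthetase signal within each array for 13 amino acids, drawn relative to the mean of its 0 min arrays; circles are the 2 arrays at 90 min and open squares the 2 arrays at 0 min. The 90 min ratios of lysine lie about 2.16 below and those of aspartate about 0.96 below, phenylalanine overlaps, and asparagine lies 0.26 above.

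Each gene was also placed among the changes of the whole array. The median cytosolic gene stood at the 19.7th percentile of all changes, with a span from the 4.44th to the 67.6th. The median mitochondrial gene stood at the 51.1st percentile, with a span from the 7.6th to the 93.1st. Among the mitochondrial genes, 46.2% (6 of 13) fell and 2 of 13 rose, beside 46.2% and 30.3% of all genes, so their share of falls was that of the background.

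**Figure D4:**
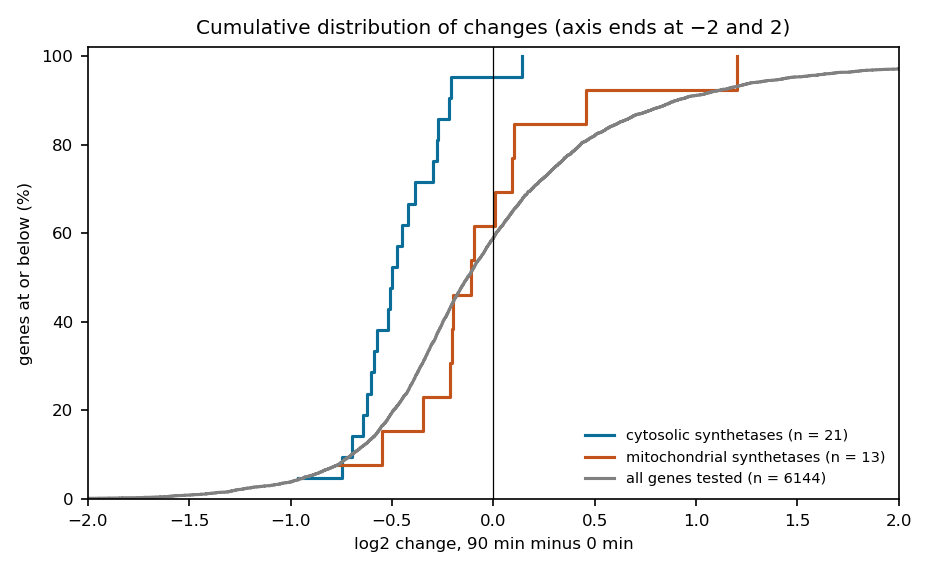
Cumulative share of genes (percent) by log2 change, 90 min minus 0 min, for 21 cytosolic synthetase genes, 13 mitochondrial synthetase genes and all 6144 genes tested. The cytosolic curve climbs to the left of the others, around its median of -0.50, and the mitochondrial curve crosses the middle at -0.11, next to all genes at -0.13.

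Genes that work beside the synthetases were counted in the same fit. In a list of 7 partners, paralogs and mitochondrial amidotransferase subunits, 2 rose and 2 fell, beside 30.3% and 46.2% of all genes. The mitochondrial amidotransferase makes glutaminyl-tRNA from glutamyl-tRNA, since mitochondria have no glutamine enzyme of their own. Its 3 subunit genes parted, with GTF1 at 1.07 ± 0.06 (adjusted p = 7.95e-06), HER2 at 0.09 ± 0.05 and PET112 at -0.36 ± 0.07. GTF1 read 0.11 and 0.05 at 90 min, against -0.97 and -1.01 at 0 min. DTD1, which removes D-amino acids from tRNA, had a change of -0.91 ± 0.08.

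GRS2, the paralog of GRS1, moved the other way from it. It read -0.75 and -0.86 at 90 min, against -1.05 and -1.02 at 0 min, a rise of 0.23 ± 0.06 (adjusted p = 0.0117). The call was lost with no scaling between arrays (0.04) and with spike-in scaling, where GRS2 had a change of -0.22, and under each of the 2 the list held 1 gene that rose and 4 that fell. AIM10, the mitochondrial proline enzyme gene, had a change of -0.10 ± 0.11 and did not pass, but it passed downward without scaling (-0.29) and under spike-in scaling (-0.55), as did ARC1.

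Of 7 genes of amino acid control by Gcn2 and Gcn4, all 7 fell, beside 46.2% of all genes, with a median of -0.38, and this held under each scaling tried. GCN2, the kinase gene that reads uncharged tRNA, had a change of -0.38 ± 0.07, and GCN4, the activator of amino acid synthesis genes, one of -0.37 ± 0.08. The largest changes were those of GIR2 (-0.54 ± 0.07), GCN3 (-0.53 ± 0.07), which encodes the regulatory alpha subunit of the initiation factor eIF2B, and GCN1 (-0.50 ± 0.08), which encodes the partner that lets Gcn2 sense tRNA on ribosomes. Since Gcn4 is controlled mainly in translation, its transcript does not report its activity.

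Genes that process, modify or export tRNA mostly fell too, 23 of 28 against 1 that rose, beside 46.2% and 30.3% of all genes, with a median of -0.42. TRM5, a tRNA guanosine methyltransferase gene, changed by -0.74 ± 0.06, MOD5, the isopentenyltransferase gene, by -0.73 ± 0.07, and TRM82, a subunit gene of another methyltransferase, by -0.70 ± 0.06. SEN2, of the splicing endonuclease, rose by 0.27 ± 0.07 (adjusted p = 0.012), a call lost without scaling (0.07) and under spike-in scaling (-0.19), where 27 of 28 fell.

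Among 9 cytosolic elongation factor genes, 6 fell and 1 rose, beside 46.2% and 30.3% of all genes. With spike-in scaling 8 were lower and 0 higher, with TEF1 and TEF2 among the lower ones, though neither passed on the main scale. Cross-hybridisation between TEF1 and TEF2, or between EFT1 and EFT2, was not tested, so they may not count as separate genes. EFB1, the exchange factor gene, changed by -1.08 ± 0.06, TEF4 by -0.84 ± 0.06 and YEF3, which encodes the fungal elongation factor 3, by -0.70 ± 0.06. CAM1, which like TEF4 encodes the gamma subunit of the exchange complex, rose by 0.23 ± 0.06, a call lost without scaling (0.04) and under spike-in scaling (-0.22). Of 10 genes of mitochondrial translation and tRNA modification, 5 fell and 1 rose, and the share that fell was close to the 46.2% of all genes. With no scaling 7 were lower and with spike-in scaling 8 were, with 0 higher under both. TUF1, the mitochondrial elongation factor Tu gene, rose by 0.40 ± 0.06 (adjusted p = 0.001), a call lost without scaling (0.20) and under spike-in scaling (-0.05), while MTO1 changed by -0.36 ± 0.08 and MRF1, a release factor gene, by -0.30 ± 0.06. The median of the cytosolic list was -0.35 and that of the mitochondrial list -0.17, beside -0.13 for all genes.

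**Figure D5:**
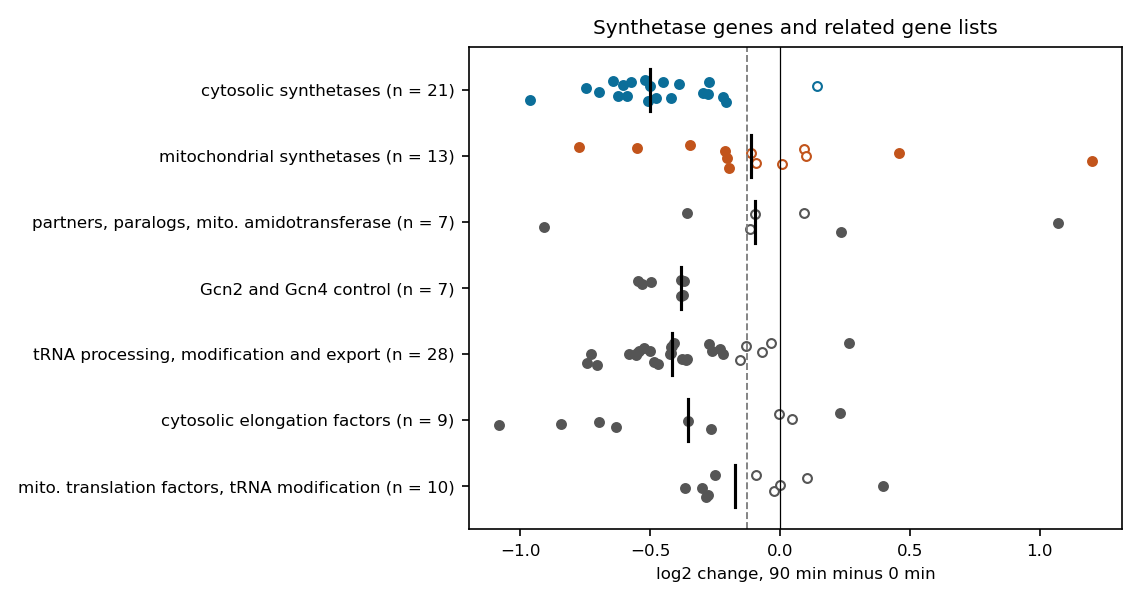
Log2 change (90 min minus 0 min) of every gene in the 2 synthetase groups and 5 related lists; filled points passed adjusted p under 0.05, open points did not, black bars are list medians and the dashed line is the median of all genes. The medians are -0.50 for cytosolic synthetases, -0.38 for Gcn2 and Gcn4 control and -0.42 for tRNA processing, against -0.11 for mitochondrial synthetases.

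Genes next to the synthetase genes on the chromosome moved in both directions. Gene order was read from the RefSeq gene table, and the neighbours named here were chosen with their values known. Leaving out neighbours that are themselves synthetase genes, 35 neighbours of cytosolic synthetase genes were tested, of which 16 fell, 8 rose and 11 did not pass, beside 46.2% and 30.3% of all genes. Of 24 neighbours of mitochondrial genes, 13 fell, 7 rose and 4 did not pass. DED81 and YHR020W are themselves neighbours on opposite strands, with starts facing away from each other, and fell by similar amounts (-0.51 and -0.59). ILS1 fell beside the Hsp70 gene SSA3, whose change was 3.28 ± 0.06, and YDR341C fell beside the hexose transporter gene HXT7, at 2.23 ± 0.06. HXT7 is nearly identical to HXT6 and SSA3 is similar to other Hsp70 genes, so their signals are uncertain. MSK1 starts opposite MLF3, which rose by 0.53 ± 0.06 (0.08 and not called with spike-in scaling). MSD1 starts opposite SYH1, which had a change of -0.18 ± 0.06. The SYH1 call was lost with quantile normalization (-0.10) and with scaling on the median (-0.13).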

How the data were processed

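The deposited scanner files hold spot intensity in arbitrary units, extracted per the file headers with Agilent Feature Extraction 10.7.3.1 on a sacCer2 design. The deposited value table holds log2 values, normalized by the authors in an unstated way, and the submitters' processing notes name limma. Each array was scaled by subtracting the 75th percentile of its yeast spots from log2 processed signal. Duplicate spots were averaged without those marked as outliers (3 to 10 per array). Tested were the 6175 of 6256 probes that were well above background on both arrays of either time. Names came from RefSeq by locus tag (5748 probes) or accession (17), and 491 kept the file's name. The brightest probe stood for a gene. The 2 times were set against each other in limma 3.58.1 (R 4.3.3; lmFit and eBayes; two-sided; Benjamini-Hochberg over all probes), and ratios with scipy 1.17.1. The fit was also run on simulated data, and the outcome is not used here as support. Figures used matplotlib 3.10.9.

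The members, lists and alternatives were chosen with earlier results of these data known. All 34 members are named. Per-array values are given for the largest changes and the exceptions, and the 3 largest changes of each related list are named with ARC1, GCN2 and GCN4. Further genes were named with their values known. A planned promoter motif search was not run, as no sequence was used here. Alternatives were other scalings, normexp with an offset of 50 on median spot signal, the value table, other filters, a replicate block, leaving out each array, other priors, the mean of probes and thresholds of 0.01 and 0.1.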

Additional observations from a re-analysis of the deposited data

How the results depend on the processing

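The count of 20 fallen cytosolic genes was 18 to 20 in every alternative run, and the cytosolic median minus the mitochondrial one was -0.49 to -0.32. GLN4 made 1 cytosolic gene higher with scaling on the median, a replicate block, an intensity trend or a threshold of 0.1. Mitochondrial genes had 1 higher with spike-in scaling and 3 lower at a threshold of 0.01. The cytosolic median of -0.50 was -0.46 with scaling on the median, -0.54 with quantile normalization, -0.59 in the deposited value table, -0.69 without scaling and -0.95 under spike-in scaling, and -0.53 to -0.46 when single arrays were left out. The mitochondrial median was -0.31 without scaling and -0.57 under spike-in scaling. Over all genes, 680 were higher with spike-in scaling, against 1860 on the main scale, or 15% of calls against 39.6%, and 26.7% with no scaling. MSY1 turned from 0.0087 to -0.44 with spike-in scaling. Relative to the 75th percentile, log2 spike-in signal itself differed between arrays (0.08 and 0.16 at 90 min, -0.48 and -0.18 at 0 min). With spike-in scaling the SE was 0.19 for DED81 and YHR020W alike, against 0.06 and 0.07 on the main scale. Calls under that scaling rest on an offset between few arrays that all genes share. Their adjusted p does not measure the spread of each gene by itself. With the replicate block 2974 genes were lower and 1952 higher, against 2840 and 1860, and GLN4 was the 1 synthetase gene whose call changed (adjusted p = 0.039). The labels leave the meaning of a shared number unstated, and same-numbered arrays deviated together only weakly (r = 0.20 over probes).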
